A study of Mus musculus with 96 samples.

Results

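The EGF family ligands and receptors were followed in the daughter cells of dividing horizontal basal cells (HBCs), the reserve stem cells of the olfactory epithelium (OE). The 10 genes were chosen by symbol from the 55487 genes of the count table: the receptors Egfr, Erbb2 and Erbb3, the EGFR ligands Hbegf, Areg, Ereg, Epgn, Tgfa and Btc, and the neuregulin Nrg1. Ligands of this family are mostly made as membrane-bound precursors. Proteases of the ADAM family release them from the cell surface, and they bind receptors on the same cell or on its neighbours. EGFR binds the EGF-type ligands, and ERBB3 binds neuregulins. ERBB2 has no known ligand of its own and pairs with the other receptors, and ERBB3 has little kinase activity and signals through its partner. In many epithelia the family drives the proliferation and migration of basal cells after injury, and the RAS-ERK cascade is one of the routes by which its receptors signal.

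All 96 cells belonged to 1 group. They were both daughter cells of 48 divisions of HBCs that had been cultured from the OE of wild-type mice of 6 to 8 weeks, 2 days after injury with methimazole (MMZ), a drug that strips the OE of most of its cells but spares HBCs. The culture began on tropoelastin and was moved to fibronectin, on which HBCs divide. Each daughter was picked by mouth pipette, and ERCC spike-in had been added to every lysate. The labels name no animal and no culture, so the cells were treated as 1 sample without replicates, no p-value was computed, and intervals cover counting error only. These intervals take the 96 cells as independent and leave out that they are sisters in 48 pairs. PCR copies were counted as reads, since no molecular identifiers were used. Per cell, 29454150 to 44849003 counts fell on genes, and ERCC transcripts took 1.06 to 5.75% of counts. The HBC markers Trp63, Krt5, Krt14 and Itga6 were counted in all 96 cells. Of the markers of other cell types, Kit, Ermn, Tyrobp, Dcn and Cdh5 were counted in 0 cells, so that up to 3.125% of cells could still hold a read, and Ptprc was counted in 7 cells. Cd68 was counted in 74 cells, and Pecam1 was counted in 92 cells but reached 10 reads in 5. The part of such reads in the results was not tested.

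Levels were compared between genes on TPM, which is scaled for the length of the transcript. Nrg1, the neuregulin, had the highest median of the family. Its TPM was 0.289 in the lowest cell, 118 at the median and 537 in the highest cell. Hbegf, which encodes heparin-binding EGF-like growth factor, came next, at 0.109, 80.1 and 817. Nrg1 was above Hbegf in 57 of 96 cells, and the cell that was highest for Hbegf, the first daughter of pair 46, was also the highest for Nrg1. Both genes were counted in every cell, but the cells ranged from under 1 TPM to over 500.

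The receptors were lower, and none exceeded 100 TPM in any cell. Egfr, the receptor of all 6 EGFR ligands, lay at 0.0896 TPM in the lowest cell, 27.3 at the median and 96.5 in the highest, and 95 of 96 cells had at least 1 TPM. Erbb2 ran from 0 through a median of 17.9 to 74.6 TPM, with 79 cells at 1 TPM or more (82.3%, exact Clopper-Pearson 95% interval 73.2 to 89.3%). Erbb3 ran from 0.00751 through 8.16 to 61.2 TPM, and 72 cells (75%, interval 65.1 to 83.3%) had at least 1 TPM. Egfr was above Erbb2 in 58 cells and above Erbb3 in 83 cells. At least 1 TPM of all 3 receptors was found in 60 cells, and in 5 cells neither Erbb2 nor Erbb3 reached it. Nrg1, the gene of a ligand of ERBB3, reached 1 TPM in 90 cells. Erbb3 and Nrg1 reached it together in 66 cells, and Erbb2 did so with both of them in 54 cells. Whether these overlaps differ from those of unrelated genes was not tested.

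Among the remaining EGFR ligands the levels fell stepwise. Tgfa, encoding transforming growth factor alpha, ran from 0 through a median of 23.7 to 98.8 TPM and was counted in 95 cells. Areg, encoding amphiregulin, ran from 0 through 12.9 to 609 TPM and was counted in 83 cells. Ereg, encoding epiregulin, ran from 0 through 3.55 to 328 TPM, and 55 cells (57.3%, interval 46.8 to 67.3%) had at least 1 TPM. Btc, encoding betacellulin, had 0 TPM at the median and 41.2 in the highest cell, and 22 cells (22.9%, interval 14.95 to 32.6%) had at least 1 TPM. Epgn, encoding epigen, was counted in 4 cells and reached 10 reads in 2 of them. The highest was the second daughter of pair 41, with 1405 counts and 34.4 TPM, while its sister had 0 counts.

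Outside a cluster on chromosome 5 described below, the members lie apart in GRCm38: Egfr at 11:16752203-16918158 and Erbb2 at 11:98412470-98437716 (both + strand), Erbb3 at 10:128567523-128589652 and Hbegf at 18:36504927-36515805 (both - strand), Tgfa at 6:86195223-86275719 (+ strand) and Nrg1 at 8:31814551-32884797 (- strand).

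The order of the medians was not the order in each cell. Egfr and Tgfa were each the higher gene in 48 cells. Erbb2 was above Areg in 48 cells and below it in 47. Tgfa was above Erbb2 in 57 cells, Areg was above Erbb3 in 56, and Erbb3 was above Ereg in 52. Hbegf was above Egfr in 74 cells, and Ereg was above Btc in 71.

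**Figure D1:**
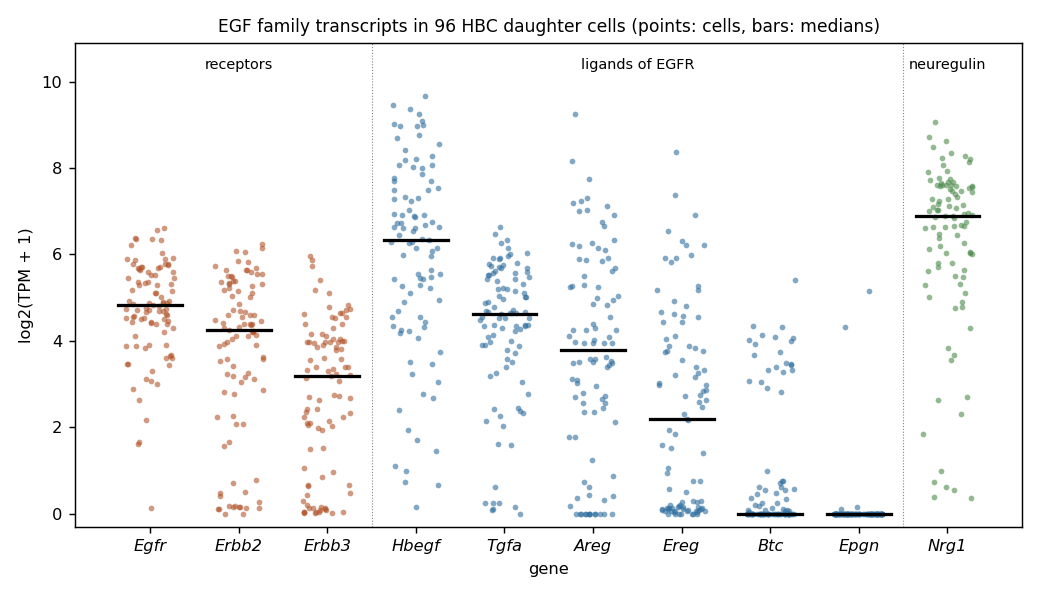
Each point is 1 of 96 cells, the vertical axis is log2(TPM + 1), and bars are medians, with receptors, EGFR ligands and Nrg1 set apart by dotted lines. Nrg1 and Hbegf lie highest with medians of 118 and 80.1 TPM, Areg and Ereg spread from 0 to 609 and 328 TPM, and all but 4 cells lie at 0 for Epgn.

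Of the 10 genes, 4 (Egfr, Erbb3, Hbegf and Nrg1) had at least 1 read in all 96 cells. This was so for 31.8% of the 14463 genes that passed a filter (a minimum of 10 counts, reached by at least 10% of cells), as every member but Epgn did. At 10 reads, the 4 fell to Egfr and Nrg1.

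Areg, Ereg, Epgn and Btc lie side by side on chromosome 5 (GRCm38), and their levels differed widely although they are neighbours. Epgn (5:91027464-91035215, + strand), Ereg (5:91074622-91093646, + strand) and Areg (5:91139599-91148432, + strand) follow each other with gaps of 39.4 and 46.0 kb that hold no other gene. Btc (5:91357261-91402994, - strand) lies 209 kb beyond Areg, and neither of the 2 genes between them passed the filter.

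The 150 bases before the start of the gene in the deposited tables are shown for Areg, Epgn and Btc, because these neighbours ranged from 83 counted cells to 4. They come from the RefSeq promoter table (GRCm38.p6), which held 6 of the 10 members, and are printed 5′ to 3′ on the strand of the gene. Capitals mark a TATA box in Areg and Epgn, a cAMP response element before the TATA box in Areg, and a CCAAT box before it in Epgn, which lies on the other strand so that the complement is printed.
Areg, 5:91139449-91139598, + strand: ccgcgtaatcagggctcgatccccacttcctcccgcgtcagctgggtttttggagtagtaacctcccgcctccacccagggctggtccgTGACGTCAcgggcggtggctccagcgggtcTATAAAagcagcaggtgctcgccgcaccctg
Epgn, 5:91027314-91027463, + strand: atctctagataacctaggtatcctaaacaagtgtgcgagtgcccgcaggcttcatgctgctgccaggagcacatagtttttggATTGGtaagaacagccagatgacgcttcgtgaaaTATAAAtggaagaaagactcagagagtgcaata
Btc, 5:91402995-91403144, - strand: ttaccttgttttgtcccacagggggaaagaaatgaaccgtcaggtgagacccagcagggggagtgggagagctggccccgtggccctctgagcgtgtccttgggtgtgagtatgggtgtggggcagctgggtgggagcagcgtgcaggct

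The TATA box began 31 bases before the start in Areg and 33 bases before it in Epgn. The RefSeq table places the start of Epgn further downstream, so that its TATA box began 86 and its CCAAT box 120 bases before that start. The letters of the TATA box were absent from the Btc stretch. On either strand, TATAAA occurred in 13.6% of the 32851 windows of the table, each with 250 bases before the start and 50 after. The cAMP response element of Areg (TGACGTCA) began 61 bases before the start, and its letters occurred in 1.79% of windows. The CCAAT box of Epgn began 67 bases before the start in the deposited tables, and its 5 letters occurred in 37.4% of windows. GC content of the whole window was 59.3% for Areg, 60.3% for Btc and 47.3% for Epgn, beside a median of 52.7% over all windows. TGANTCA, a form of the AP-1 site found in 7.81% of windows, was in none of the 6 windows of members, those of Epgn, Areg, Btc, Tgfa, Egfr and Erbb2. Hbegf, Ereg, Nrg1 and Erbb3 had no window, so this says nothing about them. The motifs do not overlap, and a match is a stretch of letters, not a measured binding site.

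The sum of the 6 EGFR ligands ran from 18.8 through a median of 159 to 928 TPM per cell, and each cell had at least 1 of them at 1 TPM or more. Most cells carried several ligands, with 3 at 1 TPM or more in 32 cells, 4 in 38 and 5 in 12. Over all cells Hbegf made up 62.1% of the summed ligand TPM, Areg 16.8%, Tgfa 11.95%, Ereg 7.56%, Btc 1.31% and Epgn 0.236%. Within a cell, the median share was 50.9% for Hbegf, 13.7% for Tgfa and 9.84% for Areg, so that Areg and Tgfa changed places when cells counted equally. Hbegf was the highest ligand in 63 cells, Tgfa in 21, Areg in 8, Ereg in 3 and Btc in 1. Without the scaling for length, on CPM, Hbegf led in 55 cells, Tgfa in 33, Ereg in 5 and Areg in 3. At least 1 TPM of Egfr and of a ligand was found in the same cell for 95 of 96 cells.

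Sisters shared a leading ligand about as often as other cells did. Both daughters had the same one in 25 of 48 pairs (52.1%), beside 48.1% of the 4512 combinations of cells that were not sisters. In the 25 pairs it was Hbegf in 22 and Tgfa in 3. In the other 23 pairs, Hbegf led in one daughter and Tgfa in its sister in 11, Hbegf and Areg in 5, Hbegf and Ereg in 3, Areg and Tgfa in 3, and Tgfa and Btc in 1. No pair had Areg, Ereg or Btc leading in both daughters.

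**Figure D2:**
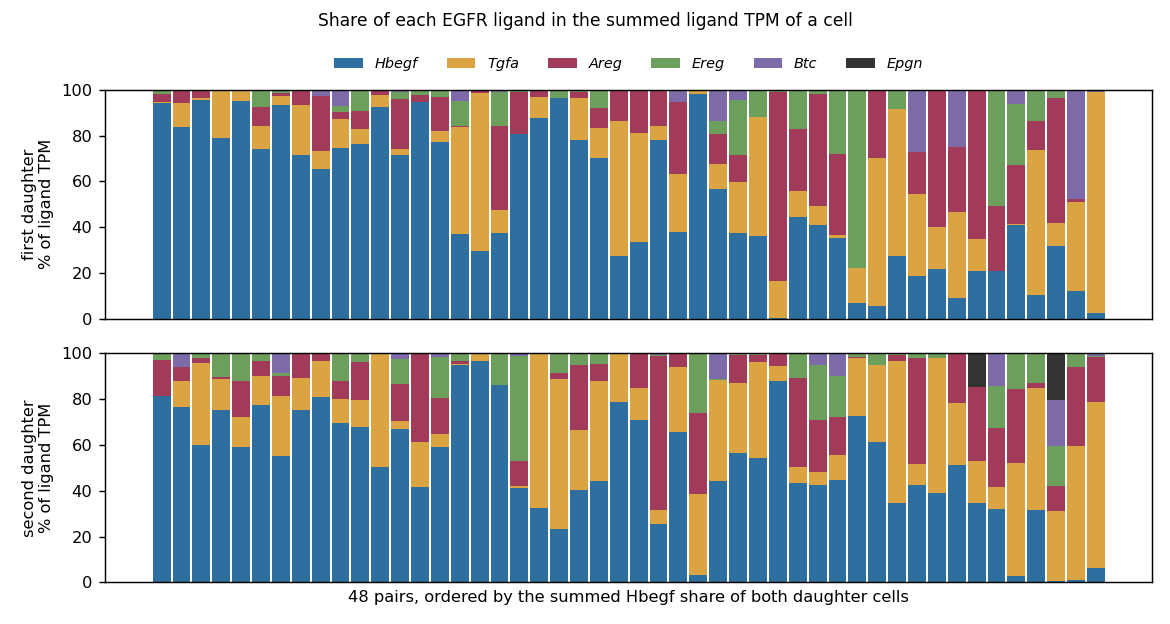
Each bar is a cell, with first daughters in the upper and second daughters in the lower panel and sisters one above the other, and the vertical axis is the percentage of each EGFR ligand in the summed ligand TPM. Hbegf leads in both daughters in 22 of 48 pairs, and on the right the leading colour often changes between sisters.

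To ask how far sisters differed for each gene, counts were scaled to the ERCC spike-in, 1 was added, and the higher daughter was divided by the lower. At a ratio of at least 1.5, Areg differed in 42 of 48 pairs, Hbegf in 38, Erbb2 in 37, Erbb3 and Ereg in 36, Btc in 35, Tgfa in 32, Nrg1 in 31, Egfr in 30 and Epgn in 4. All 9 members that passed the filter did so in 24 pairs or more, beside 79.5% of all genes that passed it, so that this count lies near the background. The median over these members was 36 pairs, and over all genes it was 33.

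Egfr differed least in size among the 9. Its median ratio was 1.74, below the median of 2.39 over all genes, and 2 pairs reached 10-fold. The largest difference was in pair 1, with 24 counts in the first daughter and 4182 in the second, and in the same pair Nrg1 had 14526 and 9268 counts. For Erbb2, in contrast, the median ratio was 4.19 and 18 pairs reached 10-fold. In pair 32, Erbb2 had 0 counts in the first daughter and 1842 in the second, while Egfr had 9261 and 6177. For Erbb3 the median ratio was 3.41, and pair 26 had 1778 counts in the first daughter and 1 in the second.

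Among the ligand genes, Btc had the highest median ratio, 13.3, with 0 counts in 1 sister of 25 pairs and in both of 12. Hbegf had a median ratio of 3.34, and in pair 29 it had 6 counts in the first daughter and 26724 in the second. In that pair Nrg1 went the same way, with 39 and 5667 counts, and Egfr was alike, with 12186 and 10521. Areg had a median ratio of 5.37, and pair 48 had 3390 counts in the first daughter and 0 in the second. Ereg had a median ratio of 5.90, and pair 12 had 3 and 5262 counts. Tgfa had a median ratio of 2.37 and its widest pair, 28, had 19 and 5185 counts. Nrg1 had a median ratio of 2.46, and its widest pair, 8, had 51 and 15481.

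ERCC transcripts, of which every lysate received an equal quantity, give the error of the method in the same pairs. For each gene the 5 ERCC transcripts of nearest mean TPM and the 5 of nearest mean count were taken, and the number of pairs at 1.5 or more was counted. The 22 ERCC transcripts that set the scaling were not left out. How far this narrows the ranges was not tested. Hbegf, with 38 pairs, lay above both ranges, which were 10 to 29 pairs by TPM and 7 to 24 by count. Areg, with 42 pairs, also lay above both, at 32 to 40 and 23 to 40 pairs. Egfr, with 30, lay below its range by TPM, 32 to 39, and above that by count, 7 to 24. Nrg1, with 31, lay within 10 to 34 by TPM and above 7 to 24 by count. Erbb2, with 37, lay within 36 to 42 by TPM and above 10 to 34 by count. Erbb3 and Ereg, each with 36 pairs, lay within both of their ranges, 29 to 42 and 10 to 40, as did Tgfa, with 32 pairs, within 32 to 39 and 10 to 34. Btc, with 35, lay within 10 to 36 and 31 to 42. The margin of Areg was 2 pairs, and its median ratio of 5.37 lay within the ranges of the same spike-ins, 2.62 to 41.7 by TPM and 1.46 to 6.23 by count. The median ratio of Hbegf, 3.34, lay above both of its ranges, 1.24 to 1.75 and 1.21 to 1.48. That of Nrg1, 2.46, also lay above both, 1.24 to 1.919 by TPM and 1.212 to 1.478 by count. So did that of Btc, 13.3, with ranges of 1.0 to 7.284 by TPM and 6.398 to 8.496 by count. Btc had 0 counts in 1 sister of 25 pairs. The median ratios of Egfr, Erbb2, Erbb3, Ereg and Tgfa lay within or below a range by at least 1 measure. In the number of pairs, each of the 7 genes other than Hbegf and Areg lay within or below a range by at least 1 measure.

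**Figure D3:**
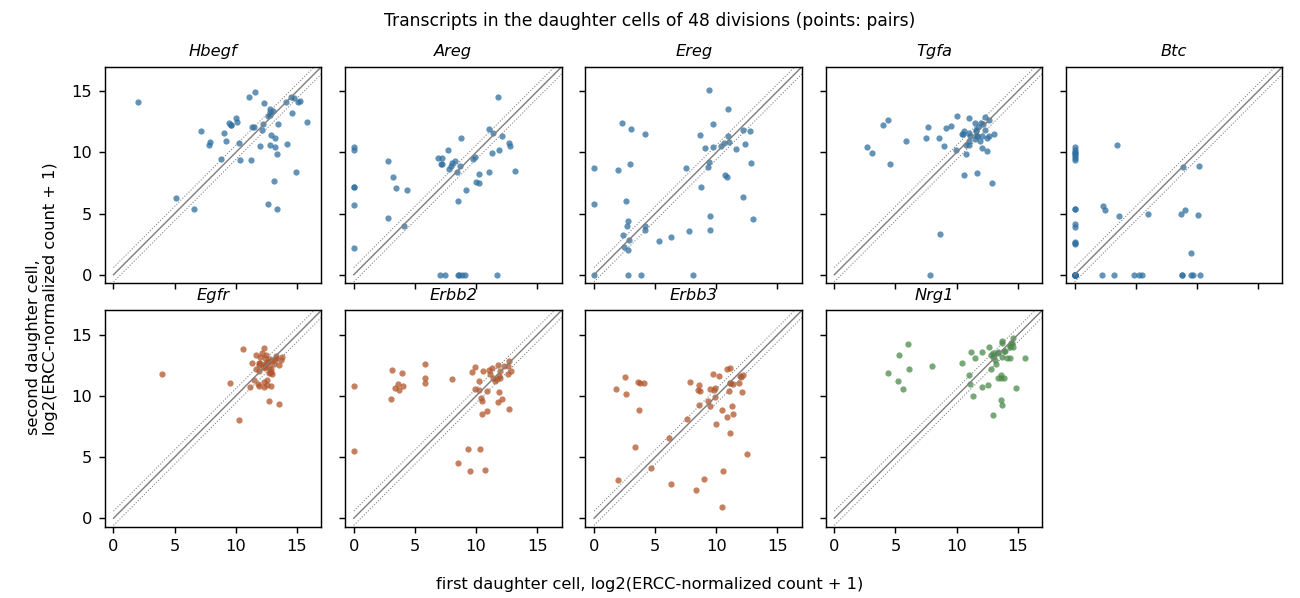
Each point is 1 of 48 pairs, with the first daughter on the horizontal and the second on the vertical axis, both as log2 of the ERCC-normalized count plus 1, and dotted lines mark a ratio of 1.5. Egfr gathers near the diagonal with a median ratio of 1.74, while Hbegf, Areg and Ereg lie wide of it and Btc has many pairs with a daughter at 0.

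How much of the spread between cells sisters had in common was described by the intraclass correlation (ICC) over 48 pairs on log2(CPM + 1), which is 1 where sisters are equal and near 0 where they are no more alike than other cells. Its median was 0.158 over the 9 members and 0.111 over all genes, of which 90% lay between -0.146 and 0.487. Ereg had the highest ICC, 0.461, and 6.11% of genes had a higher one. Areg followed at 0.405, with 8.94% of genes higher, and on ERCC-scaled counts the ICC of Areg was 0.196 and that of Ereg 0.484. Hbegf lay at 0.233, Erbb3 at 0.203, Egfr at 0.158, Nrg1 at 0.119, Tgfa at 0.117, Erbb2 at 0.0766 and Btc at -0.131.

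The likeness of sisters for Ereg was also seen in whether it was found at all. In 22 pairs both sisters had at least 1 TPM, in 15 neither had, and in 11 only 1 of them had. A sister with at least 1 TPM was thus found for 80% of the 55 cells with Ereg and for 26.8% of the 41 cells without it. For Erbb3 these shares were 80.6% of 72 cells and 58.3% of 24. For Areg they were close to each other, at 77.3% of 75 cells and 81.0% of 21, and so they were for Btc, at 18.2% of 22 cells and 24.3% of 74. A cell with Areg therefore had a sister with it no more often than a cell without.

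Cells came in 12 sets of 8, or 4 pairs, by the names under which they were deposited, and whether a set was handled together is not stated. The median TPM of a set ran from 0.0617 to 22.4 for Ereg, from 1.62 to 63.3 for Areg, from 37.1 to 193 for Hbegf, from 46.6 to 158 for Nrg1 and from 0.189 to 15.8 for Erbb3. After subtraction of the mean of the set, which lowers the ICC in part by construction, Ereg kept an ICC of 0.336, Areg 0.275 and Hbegf 0.150, while Erbb3 fell to -0.0519. Tgfa came to 0.0358, Egfr to 0.0185, Nrg1 to 0.000148, Erbb2 to -0.0183 and Btc to -0.369. The median over the 9 members was then 0.0185, and over all genes it was -0.0377. Likeness between sisters and likeness within a set cannot be told apart for Erbb3, nor for Tgfa, Egfr, Nrg1 and Erbb2.

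Among the 8 members with 10 reads in at least 48 cells, which leaves out Btc and Epgn, the highest correlations over the 96 cells were those between Hbegf, Areg, Ereg and Nrg1. Correlations below are Spearman's rho on log2(CPM + 1) over 96 cells, which are not independent, since sisters come from the same mother and each cell is 1 library, and they describe these cells only. Hbegf and Nrg1 had a rho of 0.439, Hbegf and Areg 0.405, Ereg and Nrg1 0.387, Areg and Nrg1 0.342, Areg and Ereg 0.308, and Hbegf and Ereg 0.294. Of the 28 combinations of these 8 members, 5 reached 0.3, beside 0.732% of the combinations of the 10375 genes with 10 counts in as many cells and 0.52% of those of all genes that passed the filter. The value of 0.3 was chosen after the correlations were seen, so the count is a description. Btc, which had 10 reads in 39 cells, had a rho of 0.312 with Areg over all 96 cells, 0.0970 after subtraction of the set mean and 0.111 over the 35 cells in which both had 10 reads. Leaving out any 1 set of cells kept the rho of Hbegf and Nrg1 between 0.388 and 0.499 and that of Hbegf and Areg between 0.380 and 0.437. Pearson's r was lower, at 0.321 for Hbegf and Nrg1, 0.351 for Hbegf and Areg and 0.224 for Areg and Nrg1.

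Between sisters, where the mother and the set are shared, 5 of these 6 values were lower. Over the differences between the sisters of 48 pairs, rho was 0.371 for Hbegf and Nrg1 and 0.358 for Areg and Nrg1. It was 0.248 for Areg and Ereg, 0.188 for Hbegf and Ereg, 0.169 for Hbegf and Areg, and 0.111 for Ereg and Nrg1. Tgfa and Nrg1, at 0.169 over cells, came to 0.370 over these differences. Over the means of pairs, Hbegf and Areg had a rho of 0.448. Over the differences between sisters, Areg had a rho of -0.372 with the share of ERCC counts and 0.341 with the number of genes detected. For Hbegf, Ereg and Nrg1 both values lay between -0.0715 and 0.0478. The part of these measures in the relations of Areg was not tested.

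Over cells, the receptor genes had values near or below 0 with these 4 genes. Erbb2 had a rho of -0.292 with Nrg1 and -0.248 with Ereg, and Erbb3 had -0.247 with Areg and -0.227 with Nrg1. Over the means of pairs, these values were -0.366 and -0.334 for Erbb2 and -0.308 and -0.353 for Erbb3, and over the differences between sisters they lay between -0.158 and 0.0805. Egfr, in contrast, had a rho of 0.0532 with Ereg and 0.0656 with Nrg1 over cells, and 0.298 and 0.208 over the differences between sisters. Over those differences Egfr had a rho of 0.128 with the share of ERCC counts and -0.2495 with the number of genes detected. Among the receptors, rho was -0.0157 for Egfr and Erbb2 and 0.0699 for Erbb2 and Erbb3. Hbegf had a rho of 0.00870 with Egfr, the gene of its receptor.

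**Figure D4:**
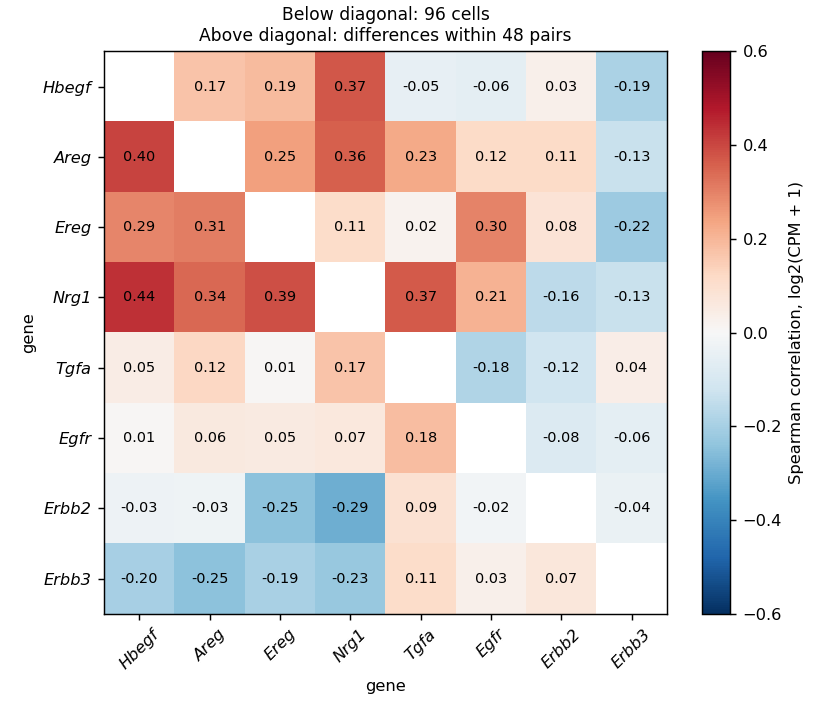
Each square gives Spearman's rho of log2(CPM + 1) for 2 of the 8 members with 10 reads in at least 48 cells, below the diagonal over 96 cells and above it over the differences between sisters in 48 pairs. The block of Hbegf, Areg, Ereg and Nrg1 holds the 5 values of at least 0.3 below the diagonal, and above it Hbegf and Nrg1, Areg and Nrg1, and Tgfa and Nrg1 exceed 0.3.

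The genes most alike to each member over the 96 cells were taken from the 14463 that passed the filter. Hbegf was most like Plaur, the gene of the urokinase receptor, with a rho of 0.636, then Phlda1 at 0.541 and Fosl1, which encodes a subunit of the transcription factor AP-1, at 0.502. Over the differences between sisters these values were 0.337, 0.416 and 0.470, and after subtraction of the set mean they were 0.530, 0.563 and 0.479. For comparison, 95% of genes had a rho with Hbegf below 0.188, and Hbegf had a rho of 0.0311 with the total count of a cell, -0.136 with its share of ERCC counts and -0.0827 with its share of mitochondrial counts. Areg was most like Jag1, the gene of a Notch ligand, at 0.521, then Ptges, the gene of a prostaglandin E synthase, at 0.459 and again Plaur at 0.435. Ereg was most like Mapk6, at 0.522, Flrt3 and Purb, and Nrg1 was most like Cdk6, a cyclin-dependent kinase gene, at 0.520, Ahnak and Litaf.

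No gene reached a rho of 0.5 with Egfr, Erbb2, Erbb3 or Tgfa. The nearest genes were Cenpv, Sgk1 and Hspa4l for Egfr, with 0.475 at the highest, and Cbr1, Agr2 and mt-Co1 for Erbb2, with 0.442. For Erbb3 they were Gm7292, Stx5a and Cxxc5, with 0.384, and for Tgfa they were Edc3, Arhgef18 and Mrpl53, with 0.414. Erbb2 also had a rho of 0.355 with the share of counts on mitochondrial genes, and the part of RNA quality in its relations was not tested.

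**Figure D5:**
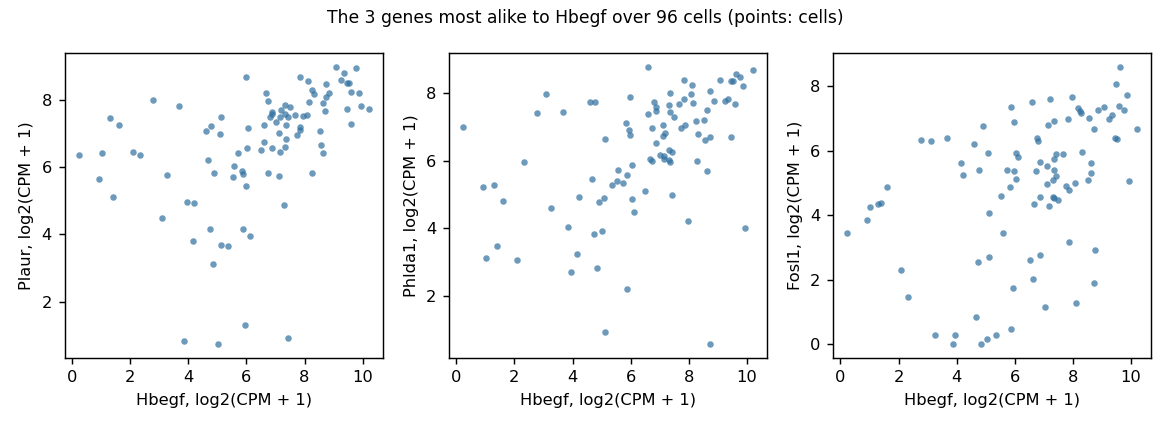
Each point is 1 of 96 cells, with Hbegf on the horizontal axis and Plaur, Phlda1 or Fosl1 on the vertical axis, all as log2(CPM + 1). Cells high in Hbegf are mostly high in all 3, with a rho of 0.636, 0.541 and 0.502, and cells low in Hbegf are widely spread.

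Other genes of the pathway were taken from lists. ERK-responsive transcripts, which many cells switch on when the ERK cascade is active, were described by 8 genes, and the mean of the list had a rho of 0.458 with Hbegf, 0.443 after subtraction of the set mean and 0.241 between sisters. Of the 8 genes, 7 had a rho above 0 with Hbegf, and the highest were Phlda1 and Fosl1 of the nearest genes above. The next were Fos at 0.263, Egr1 at 0.253 and Ier3 at 0.249, and Etv4 and Etv5, at -0.0235 and 0.0478, were near 0. With Nrg1 the mean of the list had a rho of 0.309 over cells and 0.113 between sisters, and with Egfr it had 0.0550 and -0.0868. The mean of 13 negative regulators of the pathway had a rho of 0.320 with Hbegf, and 8 of the 13 genes lay above 0, with Dusp5 at 0.477 and Dusp6 at 0.332, which encode phosphatases that act on ERK, the highest. Nrg1 had a rho of 0.414 with the mean of the 4 HBC markers and 0.224 with it between sisters.

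The genes that process and relay the signal were present in most cells. Adam10 and Adam17, the main proteases that shed these ligands, had medians of 48.2 and 36.0 TPM and were counted in all cells. Frmd8, which binds the iRhom cofactors of ADAM17, had a median of 22.0 TPM, and of the iRhom genes Rhbdf1 had 6.36 and Rhbdf2 0.0930. Of the lists of the pathway, the highest medians were those of Ier3, an immediate early gene, at 1027 TPM, Map2k2, which encodes a kinase that activates ERK, at 208, and Fos, which encodes another AP-1 subunit, at 110. The lowest, apart from the further ligands and Erbb4, were those of Lrig3 at 0, the docking protein gene Gab1 at 0.0758 and Lrig1, a negative regulator of EGFR, at 0.0788 TPM. A ratio of at least 1.5 between sisters in 24 pairs or more was found for 4 of 5 shedding genes, 13 of 15 relay genes, 13 of 13 negative regulators, 8 of 8 ERK-responsive transcripts and 1 of the 4 HBC markers, beside 79.5% of all genes that passed the filter.

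The further genes of the family were rare. Nrg2 was counted in 33 cells, with a highest value of 84.4 TPM, Nrg4 in 15, Egf itself in 14 and Nrg3 in 2. Erbb4, the remaining receptor of the family, was counted in 2 cells and reached 0.101 TPM.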

How the data were processed

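G&T-seq libraries of 96 cells were analysed. Per the labels and the methods, the authors captured poly(A) RNA on oligo-dT beads, amplified the cDNA and sequenced Nextera XT libraries, then used Trimmomatic 0.39, STAR 2.7.11a on GRCm38 with Ensembl annotation and ERCC sequences, and StringTie 2.2.1. The authors deposited integer counts per gene without normalization, and per-cell tables of TPM and of coverage (signal per base). A count equals coverage times length divided by 75 (median 74.99 over 3365 ERCC values, lowest 74.4), so a count is 75 bases of coverage and not always a read; "reads" here means such counts. Counting by strand is not stated: exons of Erbb2 share 9 bases with Mien1, of Ereg 141 with Gm19610, of Tgfa 118 with Gm43917 and of Nrg1 482 with Gm26578, all on the other strand, and these reads cannot be told apart.

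Counts were scaled by a median of ratios, taken over those ERCC transcripts (22 of 92) that every cell had counts for, (ratios between sisters, pseudocount 1) or to the library total (CPM, for correlations and the ICC). Genes needed 10 counts in at least 10% of cells. Calculations used Python 3.11.15, numpy 2.4.6, pandas 2.3.3, scipy 1.17.1 and matplotlib 3.10.9, and were tested on simulated data. Depth was 29454150 to 44849003 counts per cell, and the ERCC transcripts of like level give the precision.

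The genes and lists were chosen with earlier results of these data known. The rule named every member, the 3 most alike genes of each member with 10 reads in 48 cells, the further ligands and Erbb4, the shedding genes, and the 3 highest and 3 lowest medians of the other lists. The promoter was to be that of the most correlated ligand genes, Hbegf and Nrg1, whose sequence is not used here; Areg, Epgn and Btc were shown instead. These sequences, the motifs, the ERCC comparison, the leading ligands of cells that are not sisters, the shares of sisters above 1 TPM, the TPM at which a gene is called found, the pairs described by name, the individual ERK-responsive genes and negative regulators, and the value of 0.3 for correlations were chosen after values were seen. Alternatives were other scalings, cutoffs and pseudocounts, no filter, set means subtracted, and leaving out each set.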

Additional observations from a re-analysis of the deposited data

How the results depend on the processing

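Of 85 alternative values of the summary results, 81 stayed within a limit. The limit was 1.5 times the value given or, for the median ICC, the SD over members, a spread chosen after the values were seen. All 17 alternatives of the median ICC stayed within that SD, also the 0.0185 given below, so this limit says little about the ICC. The number of members counted in every cell, 4, was 2 at 10 reads and 0 at 1 TPM, and leaving out set 12 gave 5. The number of member combinations with a rho of at least 0.3, 5, was 3 over differences between sisters and 3 with Pearson's r, and 4 to 6 under the other alternatives, which were added after the data were seen. Members at 1.5 in 24 pairs numbered 8 or 9, while the share of all genes there ran from 61.0 to 79.5%. Sisters shared a leading ligand in 25 of 48 pairs, and in 22 to 24 of 44 pairs when a set was left out. The median ICC ran from 0.124 to 0.244, and was 0.0185 with the set mean subtracted. Of the alternatives of single values, 97 were counted as moved and 666 were not. For correlations of a member with a list, 48 moved and 114 did not. For correlations between 2 members, 34 moved and 218 did not. Among single values, the ICC of Nrg1 was 0.338 and that of Erbb2 0.254 on ranks, and Btc had 22 pairs at 1.5 on TPM and 26 on CPM. ERCC transcripts near Btc in level differed between sisters in 10 to 42 pairs, which limits what its pairs can show.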
